A study of Mus musculus with 1470 samples.

Results

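Basement membrane and capillarization genes were followed through single mouse liver cells. The set held 10 genes: Col4a1, Col4a2, Lama4, Nid1, Hspg2, Sparc, Igfbp7, Plvap, Cd34 and Vwf. They were taken by gene symbol, and each matched 1 of the 14915 gene rows in the table. Male wild-type C57BL/6J mice received either normal chow (normal diet, ND) or a high-fat diet (HFD), which was started in young animals and continued for several weeks. No group carried a transgene or a deletion. There were 3 ND mice with 718 cells and 3 HFD mice with 752 cells, and each mouse was 1 replicate. Viable non-parenchymal liver cells, the cells of the liver other than hepatocytes, had been sorted singly and sequenced over full transcripts by Smart-seq2, a plate-based method without molecular identifiers.

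A basement membrane is the thin sheet of matrix on which most endothelial cells rest. Collagen IV and laminins each form a network in it, and nidogens and the proteoglycan perlecan link the networks. Liver sinusoidal endothelial cells are unusual in being perforated by open fenestrae and in lacking an organised basement membrane. In liver injury they can lose the fenestrae and lay down matrix, a change called capillarization, in which CD34, PLVAP and von Willebrand factor, typical of other vessels, are used as markers.

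Col4a1 and Col4a2, which encode the chains of the most common collagen IV, lie head to head on chromosome 8. In the RefSeq annotation of GRCm38.p6, the assembly also known as mm10, Col4a1 spans chr8:11198423-11312889 on the minus strand and Col4a2 spans chr8:11312805-11449287 on the plus strand. The start sites used here for their promoter windows, at positions 11312826 and 11312805, were 21 bases apart, and the 22 bases from 1 to the other lie downstream of both. The annotated Col4a1 span reaches beyond these 22 bases, to 11312889, so that both genes share more bases than the stretch between the start sites. That stretch is shown because both of these start sites lie at its ends. It is chr8:11312805-11312826 and is read 5′ to 3′ on the plus strand, with a GGGCGG motif in capitals.
Col4a1 and Col4a2 start sites: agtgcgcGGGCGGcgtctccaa
Smart-seq2 libraries carry no strand information, so reads from bases that both genes cover cannot be given to either gene. RefSeq promoter windows of 300 bases, 250 before and 50 after the start, were matched for 7 of the 10 genes and searched on both strands. GGGCGG was found in 5 of these 7 windows (Col4a1, Col4a2, Igfbp7, Nid1 and Hspg2) and in 35.7% of all 32851 windows. CCAAT was found in 3 of the 7 (Col4a1, Col4a2 and Nid1) against 37.4% of all windows, and TATAAA in 0 of the 7 against 13.6%. The Col4a1 and Col4a2 windows overlap, so their matches are not separate. The other 8 genes lie apart, on chromosomes 1 (Cd34), 4 (Hspg2), 5 (Igfbp7), 6 (Vwf), 10 (Lama4), 11 (Sparc) and 13 (Nid1), with Plvap also on chromosome 8 at chr8:71497753-71511806.

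Expression is given as log2(RPKM + 1), where RPKM is reads per kilobase of transcript and scaled to the mapped reads of the cell, averaged over the cells of a class within a mouse. Cells were clustered without the 10 genes and named from marker genes, which gave 463 endothelial-like cells, 699 Kupffer-like, T-cell-like and B-cell-like cells in sum, 94 monocyte-derived or dendritic-like, 35 hepatocyte-like and 34 erythrocyte-like cells, and a remainder that stayed unnamed, of 1470 in all. All 12 endothelial markers were detected in the endothelial-like cells, with means from 5.78 for Tie1 to 11.35 for Clec4g. The endothelial-like cells numbered between 41 in HFD 3 and 108 in ND 1. Their median depth, worked out from the steps of the RPKM values, was 84989 to 247847 reads per cell over the mice, and their median number of detected genes was lowest in HFD 2 (1775) and highest in HFD 3 (3347). HFD 2 stood apart in further ways: 99 of its endothelial-like cells were in 1 cluster that held few cells of most other mice, and it had 5 T-cell-like cells. The labels name no batch. Cell names of HFD 2 lacked a prefix of the kind that the cells of each other mouse shared, and mouse and any batch cannot be told apart. RNA of other cell types was also present. The mean level of 10 Kupffer cell markers in endothelial-like cells ran from 1.18 in HFD 2 to 5.53 in HFD 3, whereas that of 11 stellate or other mesenchymal markers was 0.06 to 0.20, with 8 of the 11 below 0.1 over all cells.

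Most of the 10 genes were concentrated in the endothelial-like cells, and the spread in level among them was very wide. Igfbp7, Sparc, Hspg2, Plvap, both collagen IV chains, Nid1 and Lama4 were each higher there than in Kupffer-like, T-cell-like and B-cell-like cells in 6 of 6 mice. Cd34 and Vwf were close to 0 in every class. Within endothelial-like cells the order of the mean levels was Igfbp7, Sparc, Hspg2, Plvap, Col4a2, Col4a1, Nid1, Lama4, Cd34 and Vwf. These are RPKM values per transcript length, so that the levels of different genes can be set side by side. Hspg2 and Plvap, Col4a2 and Col4a1, and Cd34 and Vwf could not be ordered with certainty, since the first of each pair was the higher in 4, 2 and 4 of 6 mice.

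The collagen IV chains were found at middle levels. Col4a1 was at 3.98, 3.85 and 4.86 in ND 1, 2 and 3 and at 5.20, 4.14 and 3.90 in HFD 1, 2 and 3. Col4a2 was at 4.59, 4.57 and 4.83 in the ND mice and at 5.18, 3.93 and 3.80 in the HFD mice. The highest value of both chains was in HFD 1, the mouse with the deepest libraries, and the diets overlapped. Outside the endothelial-like cells the class means lay between 0.50 and 0.72 for Col4a1 and between 0.42 and 1.04 for Col4a2. The difference from the mean of the Kupffer-like, T-cell-like and B-cell-like cells of the same mouse was 3.71 ± 0.21 for Col4a1 (SE, n = 6 mice; limma, Benjamini-Hochberg adjusted p = 6.3e-12) and 3.67 ± 0.21 for Col4a2 (limma, adjusted p = 1.3e-11). At least 1 RPKM of both chains was present in 290 of the 463 endothelial-like cells (62.6%), of Col4a1 alone in 70, of Col4a2 alone in 67 and of neither in 36. The share with both chains ranged from 49.5% in HFD 2 to 75% in HFD 1.

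Lama4, which encodes the laminin alpha chain typical of vessel basement membranes, was the lowest of the 8 genes that were broadly expressed. It was at 1.62, 1.95 and 1.84 in the ND mice and at 2.77, 1.56 and 2.10 in the HFD mice, and it reached 1 RPKM in 40.8% of the endothelial-like cells, from 32.7% in HFD 2 to 52% in HFD 1. All class means outside the endothelium were 0.42 or lower, and the difference was 1.81 ± 0.19 (SE, n = 6 mice; limma, adjusted p = 6.6e-08). None of the 699 Kupffer-like, T-cell-like and B-cell-like cells had Lama4 at 100 RPKM, against 46 of the 463 endothelial-like cells (9.94%).

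Nid1 and Hspg2 encode the linkers, nidogen-1 and perlecan. Nid1 was at 3.05, 2.73 and 3.82 in ND mice and at 4.53, 3.16 and 3.01 in HFD mice, again with its top value in HFD 1. Hspg2 was at 5.98, 5.14 and 6.48 in ND mice and at 6.74, 6.44 and 5.20 in HFD mice. Among Col4a1, Col4a2, Lama4, Nid1 and Hspg2, the structural genes of the set, Hspg2 thus had the highest mean level. Its lowest value was above the highest of Nid1. Tinagl1, a basement membrane gene outside the set, was higher, at 8.72. Both exceeded the other classes in 6 of 6 mice, by 2.76 ± 0.21 for Nid1 (SE, n = 6 mice; limma, adjusted p = 6.8e-10) and by 4.89 ± 0.21 for Hspg2 (limma, adjusted p = 1.3e-13).

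Sparc and Igfbp7 encode secreted proteins that associate with the matrix. SPARC binds collagens, and IGFBP7 binds insulin-like growth factors weakly and collagen IV. Sparc was at 9.29, 9.28 and 8.94 in ND mice and at 9.45, 8.74 and 9.13 in HFD mice. Igfbp7 was at 11.75, 12.14 and 12.36 in ND mice and at 12.15, 11.65 and 11.39 in HFD mice. These were the highest levels in the set. Their SDs over the 6 mice, 0.26 and 0.37, were the smallest of the 8 broadly expressed genes, among which Plvap had the largest at 1.08. Igfbp7 reached 1 RPKM in 99.8% and Sparc in 98.5% of the endothelial-like cells. The difference from the other classes was 6.40 ± 0.20 for Sparc and 6.83 ± 0.20 for Igfbp7 (SE, n = 6 mice; limma, adjusted p = 8.5e-16 for both).

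Plvap encodes the protein of the diaphragms that close fenestrae and caveolae in many capillaries. It was at 5.06, 5.82 and 6.31 in ND mice and at 6.80, 4.42 and 4.04 in HFD mice, so that HFD 1 held the highest value and the other HFD mice the lowest. Its difference from the other classes was 3.87 ± 0.28 (SE, n = 6 mice; limma, adjusted p = 2.5e-10), from 2.49 in HFD 3 to 5.19 in HFD 1. Cd34, a sialomucin of blood progenitors and of many vessels, was at 0.26, 0.63 and 0.09 in ND mice and at 0.03, 0.19 and 0.00 in HFD mice. Vwf, the gene of the von Willebrand factor that tethers platelets, was at 0.20, 0.00 and 0.02 in ND mice and at 0.00, 0.39 and 0.01 in HFD mice. Neither gene reached the mean of 1 needed for the test across genes. Cd34 differed from the other classes by 0.12 ± 0.23 (SD, n = 6 mice; two-sided exact permutation test, p = 0.25) and Vwf by 0.09 ± 0.16 (exact p = 0.188), where 0.03125 is the smallest p that 6 mice allow. The class with the highest mean of both was the monocyte-derived or dendritic-like cells, at 0.31 for Cd34 and 0.16 for Vwf, and its range overlapped that of the endothelial-like cells.

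**Figure D1:**
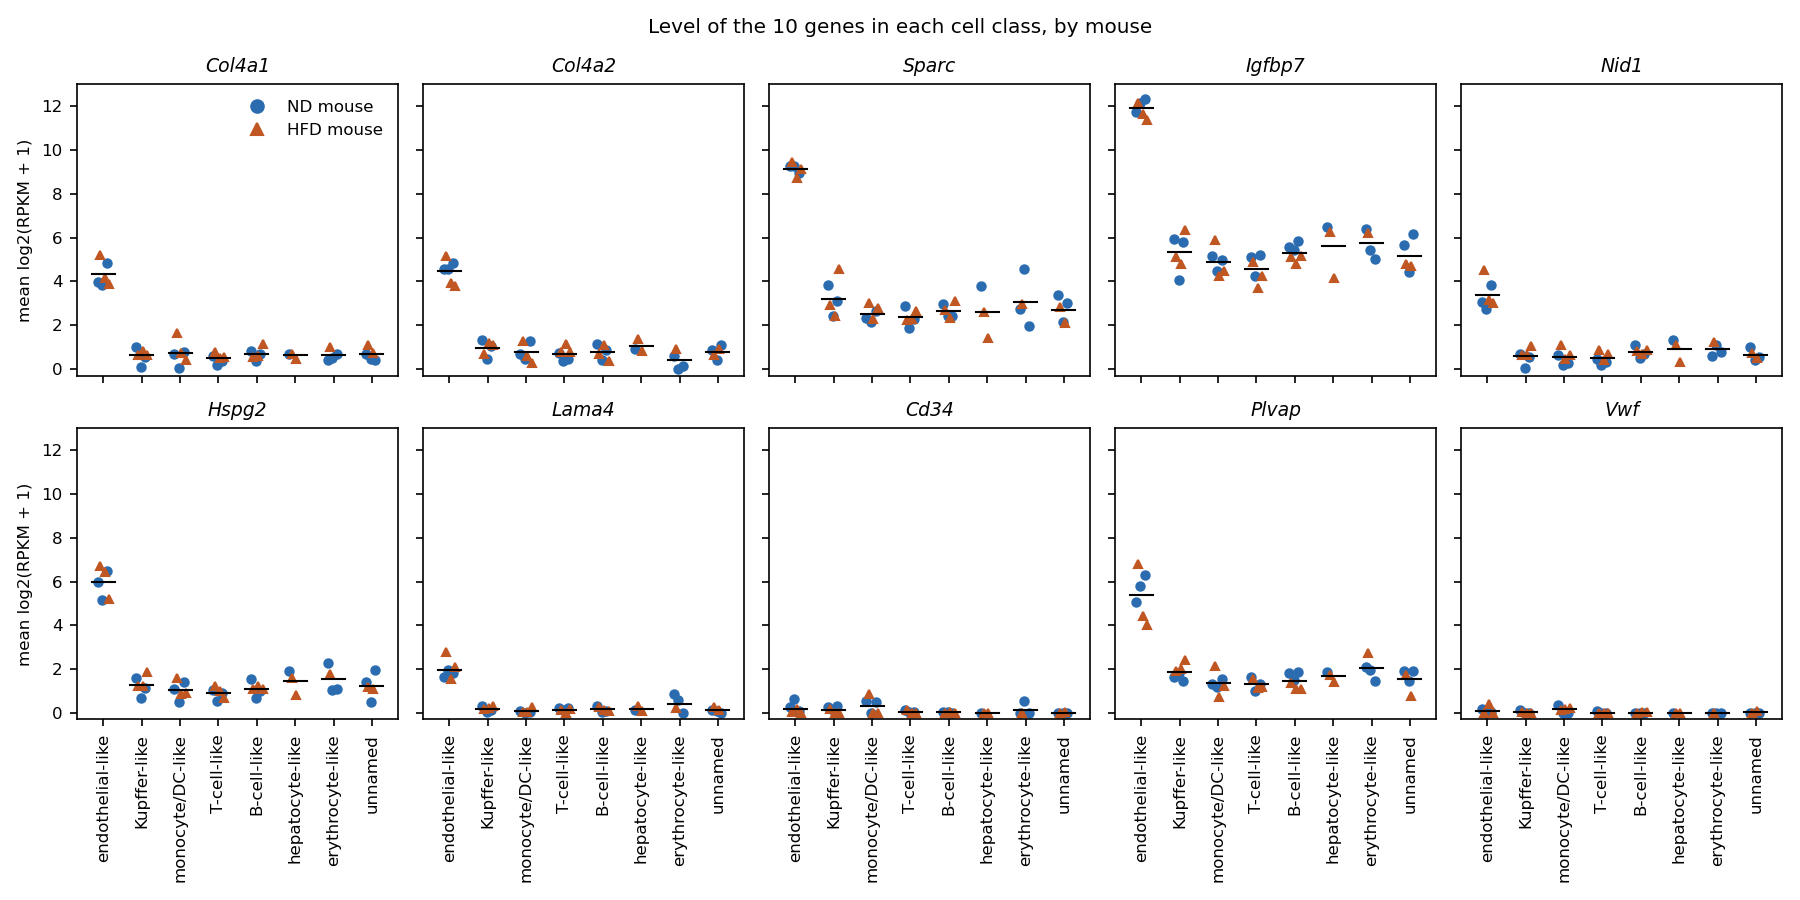
Level of each of the 10 genes, as mean log2(RPKM + 1), in each marker-defined cell class. Circles are single ND mice, triangles are single HFD mice and bars are the means over mice. Igfbp7 and Sparc stand highest in endothelial-like cells at means of 11.91 and 9.14, and Cd34 and Vwf lie near 0 in all classes.

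Of the 8 genes that passed the filter, 8 were higher in endothelial-like cells, compared with 1119 of all 4254 genes tested (26.3%), and 0 were lower, compared with 1198 (28.2%). The median difference was 3.79 for the 8 genes and -0.04 for all genes. The filter took the mean over endothelial-like and other cells, and Col4a1, Nid1 and Lama4, which were below 1 in the other cells of every mouse, and Col4a2, which was at 0.42 to 1.14 there, passed it through their endothelial level. The count and the median were thus fixed in part by the filter, and nothing is read from them. The calls were kept in each alternative in which a gene passed the filter, 21 for Sparc and 19 for Lama4. The classes were built from other genes of the same cells, so the p-values measure how well the difference repeats over mice.

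For most of the broadly expressed genes, the low levels outside the endothelium were close to those of endothelial markers. Mean RPKM in Kupffer-like, T-cell-like and B-cell-like cells was 1.22% of that in endothelial-like cells for Col4a1, 1.41% for Col4a2, 1.53% for Sparc, 1.38% for Igfbp7, 1.20% for Hspg2 and 0.97% for Lama4 (medians over mice). The same measure over 12 endothelial markers ran from 0.91% to 20.7% with a median of 1.24%. Nid1 was at 3.29%, with a wide range of 0.697% to 27.8% over mice, and Plvap was at 6.54%, from 1.48% to 15.97%. The shares of cells with at least 1 RPKM were much less different between classes. Sparc was at 1 RPKM or more in 80.3% of B-cell-like cells and Igfbp7 in 95.5% of them. The endothelial-like shares were 98.5% and 99.8%. At 100 RPKM or more, Sparc was found in 86.6% and Igfbp7 in 98.5% of endothelial-like cells. The shares of Sparc at 100 RPKM were 5.79% in Kupffer-like, 0.469% in T-cell-like and 0% in B-cell-like cells. Those of Igfbp7 were 27.3%, 6.1% and 16.4%, so this level did not separate the classes fully for Igfbp7.

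The values rested on very different numbers of reads. In the median endothelial-like cell, Hspg2 was covered by 173 reads, Col4a2 by 20, Col4a1 by 16, Plvap by 6 and Nid1 by 2, and Lama4 and Vwf by 0. The upper quartiles were 659 reads for Hspg2, 190 for Col4a2, 154.5 for Col4a1, 105 for Nid1 and 8 for Lama4. A cell without Lama4 or Vwf reads cannot be called negative at this depth. Of the 463 cells, 78 had all 8 broadly expressed genes at 1 RPKM or more and 140 had 7.

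No difference between the diets was found for any of the 10 genes in endothelial-like cells. In the comparison of 3 HFD with 3 ND mice, 0 of the 8 genes tested were called, and 0 of all 4217 genes tested (0%; limma, Benjamini-Hochberg adjusted p under 0.05), with 98 genes at an unadjusted p under 0.05. The 3 values of each diet overlapped for all 10 genes, whereas they did not overlap for 6.21% of all genes. The HFD minus ND difference was 0.18 for Col4a1 (95% confidence interval -0.82 to 1.18), -0.36 for Col4a2 (-1.32 to 0.61) and 0.34 for Lama4 (-0.59 to 1.27). It was 0.37 for Nid1 (-0.66 to 1.4) and 0.26 for Hspg2 (-0.79 to 1.31). The secreted genes differed by -0.07 for Sparc (-0.96 to 0.83) and by -0.35 for Igfbp7 (-1.26 to 0.56). The widest interval was that of Plvap, at -0.64 (-1.90 to 0.61), and the limma adjusted p of the 8 genes was 1.

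All 8 intervals included 0. The median of the 8 differences was 0.06, and that of all genes was -0.16. Cd34 was at 0.33 ± 0.28 in ND and 0.07 ± 0.10 in HFD mice (SD, n = 3; exact permutation test, p = 0.2), and Vwf was at 0.07 ± 0.11 in ND and 0.13 ± 0.22 in HFD mice (exact p = 0.9), where 3 mice against 3 cannot give a p below 0.1. Without HFD 1 the differences of Col4a1, Nid1 and Hspg2 were -0.21, -0.11 and -0.05, that of Lama4 was 0.03, that of Col4a2 was -0.79 and that of Plvap was -1.50. Without HFD 3 those of Col4a2 and Plvap were -0.11 and -0.12. Leaving out ND 2 gave -0.01 for Col4a1 and -0.11 for Hspg2, and leaving out HFD 2 gave 0.11 for Sparc and 0.63 for Lama4. Igfbp7 ran from -0.56 without HFD 1 to -0.18 without HFD 3. Without HFD 3, the mouse with the highest level of Kupffer cell markers, 50 of all genes were called and 0 of the 8.

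**Figure D2:**
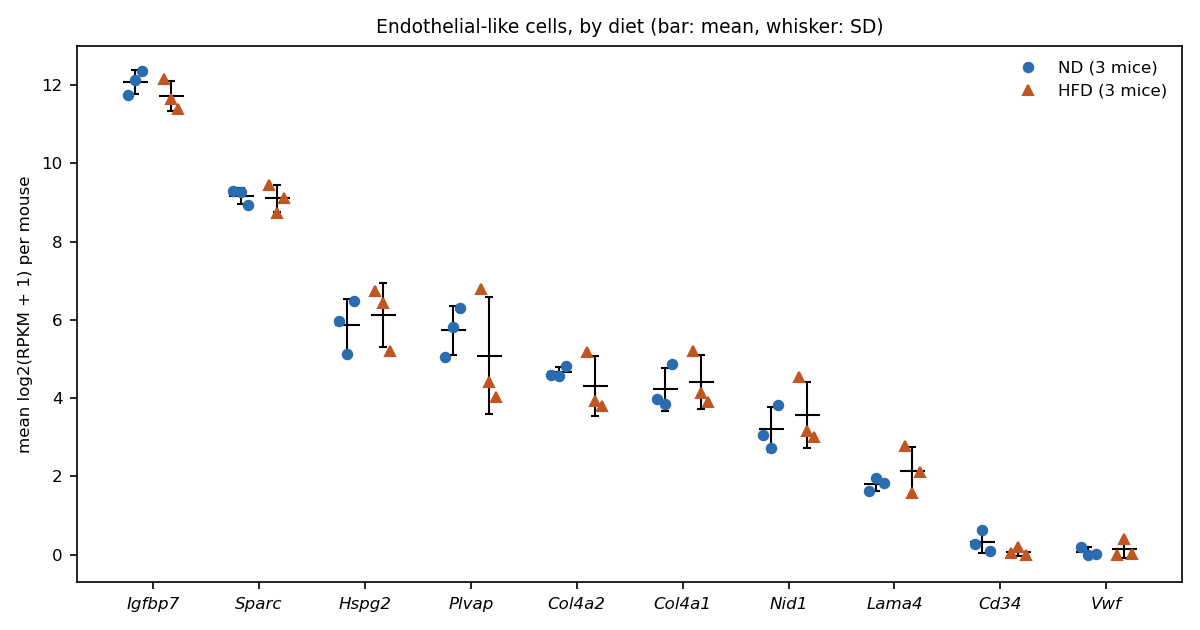
Mean log2(RPKM + 1) of the 10 genes in endothelial-like cells of each mouse, with ND and HFD mice side by side. Circles (ND) and triangles (HFD) are single mice, bars are means over 3 mice and whiskers are SDs. The diets overlap for every gene, and Plvap is spread most widely in HFD mice, from 4.04 to 6.80.

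Sinusoidal endothelial cells differ along the lobule from the portal vein to the central vein, and the 10 genes were next compared along this axis. A zone score was taken as the mean log2(RPKM + 1) of 10 pericentral genes minus that of 10 periportal genes, and the endothelial-like cells of each mouse were divided at its median. None of the 10 genes of the set was in the score. The 2 groups are ranges of a score and not cell types, and 22% of the cells lay within 0.25 SD of the median. Plvap was higher in the pericentral-leaning cells, Lama4 was lower there, and the other 6 genes tested were not called.

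In ND 1, 2 and 3, Plvap was at 5.64, 6.67 and 7.01 in the pericentral-leaning cells and at 4.48, 4.96 and 5.63 in the periportal-leaning cells. In HFD 1, 2 and 3 it was at 7.75, 5.96 and 5.18 in the pericentral-leaning and at 5.84, 2.91 and 2.95 in the periportal-leaning cells. The difference was positive in 6 of 6 mice, which 4.88% of all 4205 genes tested reached. It averaged 1.91 ± 0.26 (SE, n = 6 mice; limma, Benjamini-Hochberg adjusted p = 0.00119; two-sided exact permutation test, p = 0.03125, the smallest that 6 mice allow). Of the 8 genes tested, 1 was called higher in the pericentral-leaning cells, compared with 37 of the 4205 (0.88%). The share of cells with Plvap at 100 RPKM or more was also the higher in these cells in each mouse, at 44.4% against 27.8% in ND 1, 63.3% against 43.3% in ND 2 and 69.2% against 51.9% in ND 3. In HFD 1, 2 and 3 it was 72% against 46%, 54% against 23.5% and 45% against 19%. The pericentral-leaning cells also had more genes detected in 5 of 6 mice (in ND 1, for example, 3163.5 against 2761 at the median), ND 3 being the exception, and a higher mean of the endothelial markers in 5 of 6, with HFD 3 the exception at 7.88 against 8.07. The part of these in the Plvap difference was not tested.

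The Plvap call was kept in 17 of 21 alternatives, and the difference was positive in all 21. The limma adjusted p was 0.867 with RPKM averaged before the logarithm, 0.307 with no filter on low genes, 0.211 with a mean-variance trend and 0.371 with each gene's own spread. In HFD mice the zone difference of Plvap was 1.91, 3.05 and 2.22 (mean 2.39 ± 0.59, SD), and in ND mice it was 1.16, 1.71 and 1.38 (1.42 ± 0.28). These 3 values of each diet did not overlap, which held for 1 of the 10 genes and for 368 of the 4205 genes (8.75%). The exact permutation p of 0.1 was the smallest possible, and the diets could not be told apart at that size of design.

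Lama4 went the other way. In ND 1, 2 and 3 it was at 1.26, 1.08 and 1.35 in the pericentral-leaning cells and at 1.98, 2.83 and 2.31 in the periportal-leaning cells. In HFD 1, 2 and 3 the values were 2.35, 0.87 and 1.49 against 3.18, 2.25 and 2.68. It was lower in 6 of 6 mice, as were 58 of all 4205 genes (1.38%), by 0.73 to 1.76. The mean difference was -1.14 ± 0.23 (SE, n = 6 mice; limma, adjusted p = 0.0184; exact p = 0.03125). Of the 8 genes tested, 1 was called lower, compared with 10 of the 4205 (0.238%). Lama4 reached 1 RPKM in 20% to 42% of the pericentral-leaning and 38.9% to 62% of the periportal-leaning cells of a mouse.

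The Lama4 call was kept in 10 of 20 alternatives, and the difference was negative in all 20. It was lost when any of ND 1, ND 2, HFD 1 or HFD 2 was left out (limma, adjusted p = 0.0599, 0.0953, 0.0534 and 0.0807) and, with all mice, in 6 further settings. Lama4 is also expressed by mesenchymal cells, and the mean of the 11 mesenchymal markers was lower in the pericentral-leaning cells in 5 of 6 mice, at 0.04 to 0.20 against 0.07 to 0.24. Without the cells that carried markers of mesenchymal, bile duct or platelet cells, the difference was -1.17 for Lama4 (limma, adjusted p = 0.021) and 1.84 for Plvap (adjusted p = 0.00198). The mean of the hepatocyte markers was lower in the pericentral-leaning cells in 6 of 6 mice, for example at 2.14 against 3.30 in HFD 1, and its part in these differences was not tested.

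The remaining genes gave small and variable zone differences. Hspg2 differed by 0.37 (95% confidence interval -0.14 to 0.87) and was higher in the pericentral-leaning cells in 5 of 6 mice, and Igfbp7 differed by 0.20 (-0.28 to 0.67), also in 5 of 6 mice. Col4a2 differed by 0.15 (-0.38 to 0.69), Sparc by -0.14 (-0.62 to 0.34) and Nid1 by -0.18 (-0.84 to 0.49). The value of Col4a1, 0.12 (-0.44 to 0.67), rested on HFD 2, where the difference was 1.54, and it was -0.17 without that mouse. Nid1 ranged from -2.0 in ND 2 to 0.82 in HFD 1 and was 0.19 without ND 2. Single mice also moved Col4a2, to 0.02 without ND 1 and 0.36 without HFD 2, Igfbp7, to 0.09 without HFD 3, Sparc, to -0.05 without ND 1 and -0.23 without ND 2, and Hspg2, to 0.21 without ND 1. The median difference of all genes was 0.08. Cd34 and Vwf did not pass the filter. Cd34 differed by -0.25 ± 0.30 (SD, n = 6 mice, two-sided exact permutation test, p = 0.125) and Vwf by -0.14 ± 0.22 (exact permutation test, p = 0.375).

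**Figure D3:**
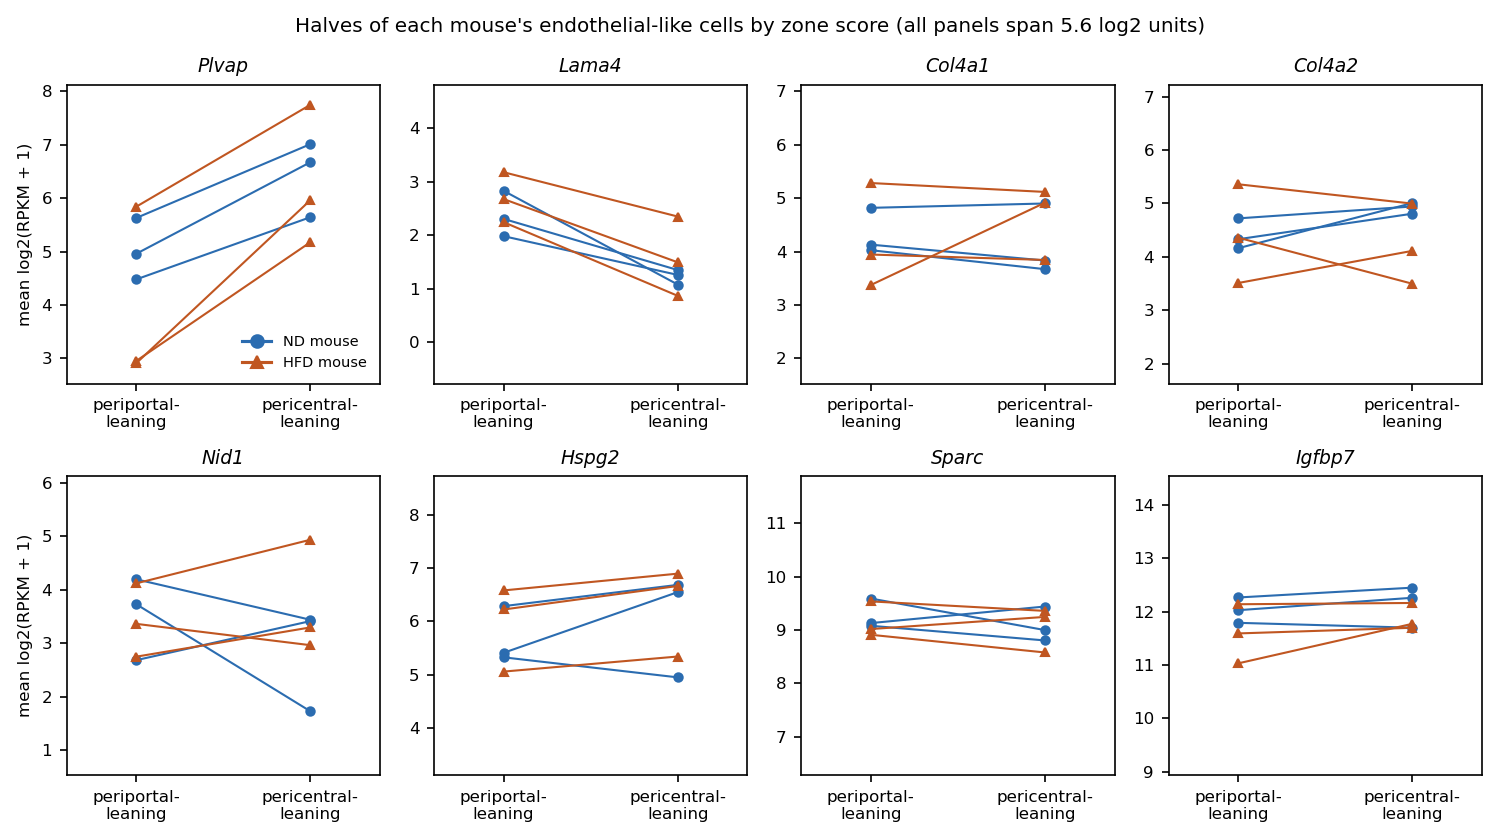
Mean log2(RPKM + 1) of the broadly expressed genes in the periportal-leaning and pericentral-leaning groups of the endothelial-like cells. Each line joins the groups of 1 mouse, with the same length of scale in every panel. Plvap goes up towards the pericentral-leaning cells in 6 of 6 mice and Lama4 goes down in 6 of 6, and the lines of the other genes do not share 1 direction.

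How the genes varied together from cell to cell was described by correlations within each mouse over 41 to 108 endothelial-like cells, after regression on the number of genes detected and averaged over 6 mice. The cells of a mouse share their library preparation and differ in depth, and no test was made. Sparc and Igfbp7 went together most closely (r = 0.34, 0.16 to 0.58 over mice). Col4a1 and Col4a2 had r = 0.20 (0.01 to 0.39), and Igfbp7 had 0.23 with Hspg2, 0.22 with Col4a2 and 0.22 with Col4a1. Without the regression these 4 values were 0.27, 0.27, 0.26 and 0.25. The lowest value was that of Lama4 with Plvap, at -0.09, and it was negative in 6 of 6 mice, but it was -0.02 without the regression. Of the 28 pairs of the 8 genes, 25 had a positive mean, with a median of 0.10 against 0.01 for the 8 genes with 7775 other genes. Most of these correlations were weak.

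The genes most like each of the 8 were then listed. Igfbp7 was most like Sepp1 (r = 0.55), Dnase1l3 (0.54) and Eng (0.47), and Sparc was most like Dnase1l3 (0.34), Clec4g (0.30) and Sepp1 (0.28). Hspg2 was most like Stab2 (0.36), Dpp4 (0.32) and Fcgr2b (0.29), and Col4a1 was most like Stab2 (0.29), Cd81 (0.28) and Malat1 (0.27). Stab2, Clec4g, Dnase1l3 and Fcgr2b are genes of sinusoidal endothelium, among them scavenger and Fc receptors. Plvap was most like Kit (0.31), Ptgs1 (0.31) and Cdh13 (0.30), and these 3 genes belong to the pericentral genes of the zone score. The values were lower for Col4a2 (Psap 0.24, Plxnd1 0.23, Tmem106a 0.22), Nid1 (Sec23a 0.21, Mpdz 0.20) and Lama4 (Sntb2 0.21, Frmd4b 0.21, Ttc21b 0.20). Of the 24 places in the 8 lists, 14 were kept without the regression.

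**Figure D4:**
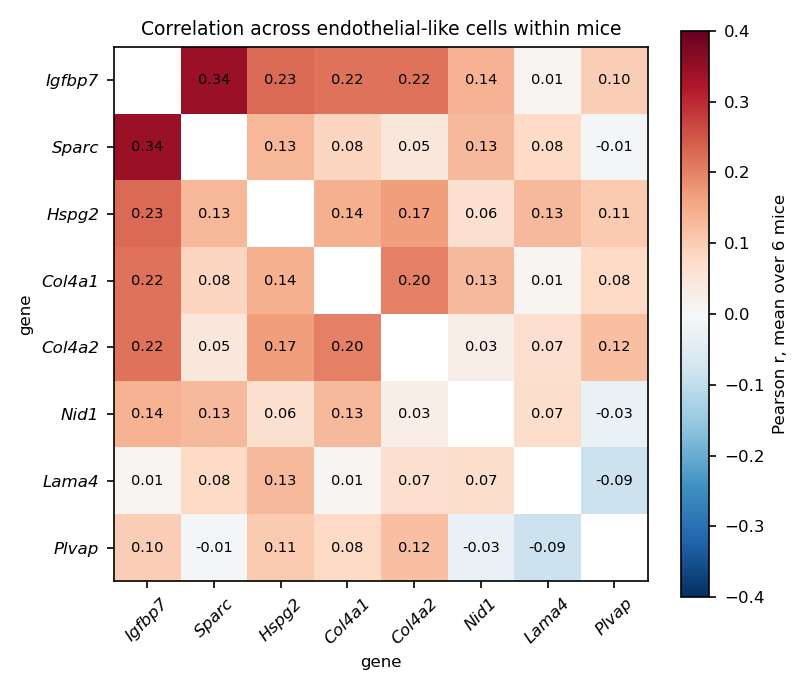
Pearson correlation of each pair of the 8 broadly expressed genes over endothelial-like cells, as the mean over 6 mice after regression on the number of genes detected. The colour scale gives r. Sparc with Igfbp7 is the highest at 0.34, and Lama4 with Plvap is the lowest at -0.09.

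Endothelial-like cells fell into 3 clusters, of which c1 and c9 were both present with at least 5 cells in 5 mice. All 8 broadly expressed genes had a higher mean in c1 in 5 of 5 mice, by 2.75 for Plvap, 2.12 for Hspg2, 2.11 for Col4a1 and for Nid1, 2.06 for Col4a2, 1.64 for Igfbp7, 1.20 for Lama4 and 1.03 for Sparc. Cells of c1 also had 756.5 more genes detected at the median, so depth and cluster cannot be told apart. No test was made, since clusters are drawn from the same cells. The remaining cluster, c6, had Plvap at 4.42, Col4a1 at 4.13 and Hspg2 at 6.43 in HFD 2.

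Genes that work with the 10 in the matrix were read from lists. These lists were compiled with earlier results of the data known. Their counts by class stand beside the 26.3% of all genes that were higher and the 28.2% that were lower, and the filter favoured genes with a high endothelial level, so that no list is called particular from them. Of 27 partners in the basement membrane, 2 passed the filter for the comparison of classes and both were higher in endothelial-like cells, namely Tinagl1, which encodes a matrix protein related to tubulointerstitial nephritis antigen (6.19 ± 0.28, SE, n = 6 mice; limma, adjusted p = 2.3e-13), and Emilin1, an elastic fibre protein (3.21 ± 0.30; adjusted p = 1.3e-08). Of 18 genes that make and cross-link collagen, 10 were tested, of which 8 were higher and 1 was lower, with a median of 1.46. Pxdn, the peroxidasin that forms the sulfilimine bond of collagen IV, differed by 2.63 and Serpinh1, the collagen chaperone HSP47, by 1.82. Of 14 matrix receptors only 4 passed the filter, all of them higher, with the integrin subunits Itga1 at 2.47, Itga5 at 1.85 and Itgb1 at 1.32 and dystroglycan, Dag1, at 1.66.

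Matrix proteases and their inhibitors were divided, with 3 higher and 2 lower of 6 tested. Timp3, a matrix-bound inhibitor, was higher by 4.74 and the membrane protease Mmp14 by 2.88, whereas Mmp9 was at -1.16 and Timp2 at -0.74. Of 23 genes of continuous vessels, 8 were tested and 6 were higher, among them Cldn5, a tight junction gene (5.54), Bgn (5.15), Gja4 (3.45) and Emcn (3.05), whereas Ly6a (-0.07) and Clu (0.20) did not pass. The 15 sinusoidal genes were all higher, with a median of 5.85. Part of them named the class and all could enter the clustering, so that this count was fixed in part by the choice of cells.

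By diet, 0 genes of these lists were called (limma, adjusted p = 1 for each). Tinagl1 was at 9.24 ± 0.40 in ND and 8.20 ± 1.32 in HFD mice (SD, n = 3), and Bgn was at 7.69 ± 0.31 and 6.58 ± 1.16. By zone, 4 genes were called, each higher in the pericentral-leaning cells in 6 of 6 mice, beside 0.88% of all genes. Over all genes, 0 were called higher with RPKM averaged before the logarithm or with a mean-variance trend, and 1 with no filter or with each gene's own spread. These were Gja4, a connexin of arteries (1.54), Cd9, a tetraspanin (1.46; limma, adjusted p = 0.0123 for both), Tinagl1 (1.36; adjusted p = 0.0176) and Bcam, a laminin receptor (1.18; adjusted p = 0.0197). Among the sinusoidal genes 0 of 15 were called by zone, with a median difference of 0.10. Among the collagen-making genes 0 of 10 were called. P4hb was at -0.19 and Tgm2 at 0.83, the latter higher in 5 of 6 mice (limma, adjusted p = 0.12).

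**Figure D5:**
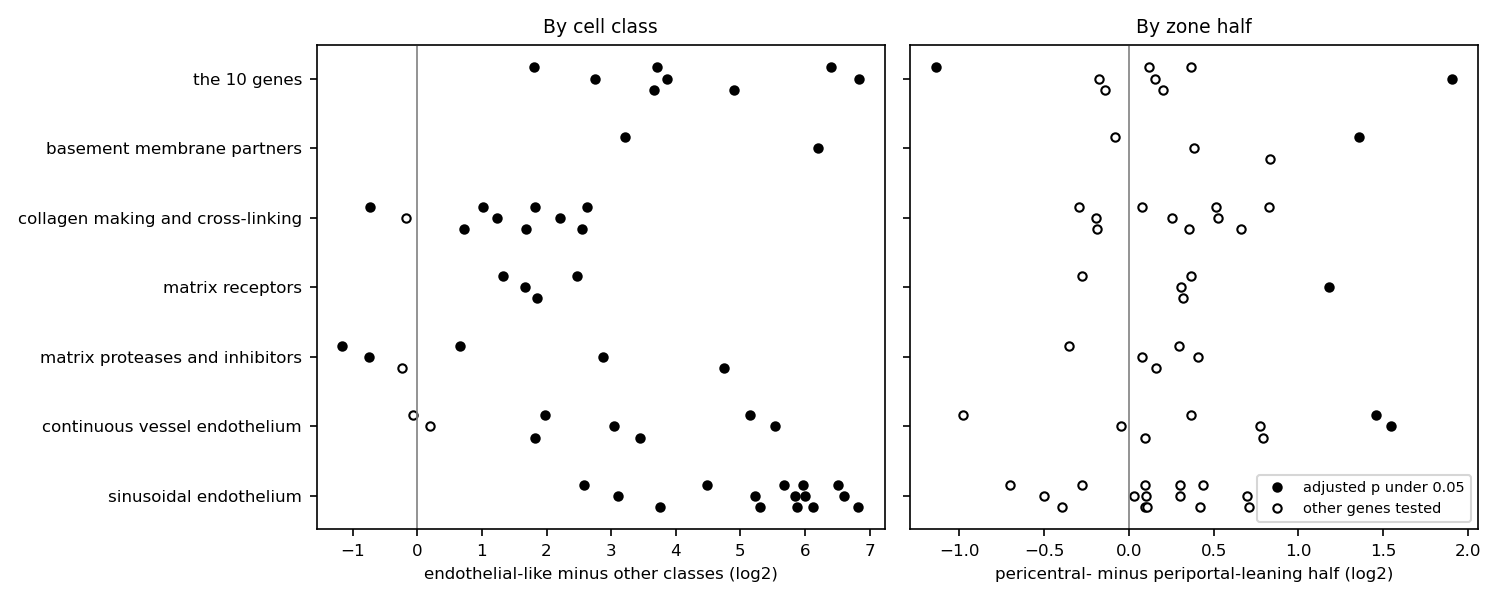
Differences in mean log2(RPKM + 1) of the tested genes of each list, for endothelial-like cells against other classes on the left and pericentral-leaning against periportal-leaning cells on the right. Each point is a gene, filled where the adjusted p was under 0.05. On the left the 8 tested genes of the set are filled, where 26.3% of all genes tested were called higher and 28.2% lower. That count was fixed in part by the filter. On the right only Plvap at 1.91 and Lama4 at -1.14 are filled among the 8.

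Vwf and Cd34 were present in a small number of endothelial-like cells. Vwf reached 1 RPKM in 12 of the 463 (2.59%, exact binomial 95% interval 1.35% to 4.48%, which covers counting error only). Of these cells 5 came from ND 1, 1 from ND 3 and 6 from HFD 2, and 0 of 60, 0 of 100 and 0 of 41 cells were positive in ND 2, HFD 1 and HFD 3, which allows shares of up to 5%, 3% and 7.32% of cells with detected Vwf, and sets no limit on cells that express it below detection. The share was 5.32% in monocyte-derived or dendritic-like cells and 4.14% in unnamed cells, but levels there stayed at or below 26.1 RPKM. All 5 cells above 100 RPKM were endothelial-like, and the highest was at 666 RPKM. Cd34 reached 1 RPKM in 18 endothelial-like cells (3.89%, 2.32% to 6.07%), of which 6 were in ND 2 and 0 in HFD 3, and in 3.76% of T-cell-like cells.

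The cells with Vwf were set beside the cells without it in ND 1 and HFD 2, which held all but 1 of them, as a description. Sparc, Igfbp7, Hspg2 and the sinusoidal list were lower in both mice, and Cd34, Lama4 and Col4a1 were higher in both. Sparc was at 7.86 against 9.36 in ND 1 and at 7.03 against 8.85 in HFD 2. Igfbp7 was at 9.54 against 11.85 and at 11.17 against 11.68, and Hspg2 was at 2.98 against 6.12 and at 4.77 against 6.54. The sinusoidal list was at means of 6.03 against 7.85 and 7.22 against 8.08. Cd34 was at 2.87 against 0.13 in ND 1 and at 2.4 against 0.05 in HFD 2, Lama4 at 2.14 against 1.59 and at 3.55 against 1.44, and Col4a1 at 4.42 against 3.96 and at 5.28 against 4.07. The cells with Vwf also leaned to the periportal side, with a median zone score of -0.84 against 0.63 in ND 1 and -1.07 against 0.15 in HFD 2, and the part of this in the Lama4 values was not tested. The differences of Plvap, Col4a2, Nid1 and the continuous vessel list had opposite signs in the 2 mice. Plvap was at 3.83 against 5.12 in ND 1 and at 5.17 against 4.37 in HFD 2, and Col4a2 was at 3.99 against 4.61 and at 4.57 against 3.89. The mean of the continuous vessel list was 1.81 against 1.93 in ND 1 and 2.95 against 1.72 in HFD 2. At least 2 platelet genes were found in 3 of the 12 cells, all from ND 1, and platelets also carry Vwf.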

How the data were processed

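Single viable non-parenchymal liver cells of 3 ND and 3 HFD mice were profiled by Smart-seq2. The authors used STAR with the mm10 genome, took reads with a unique position, removed poor cells and doublets, and deposited RPKM values per RefSeq gene and cell, with no counts. Replicate samples are mice, as the labels give them. The table holds 1470 cells, as many as the study's methods give, and 0 columns were without a sample.

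Depth was worked out from RPKM steps with RefSeq transcript lengths, in which a median of 68.6% of low values over 9617 genes lay within 0.1 of a whole read, so no count test was run. Cells were clustered without the 10 genes and the compared lists other than the sinusoidal one (1000 variable genes, 20 principal components, 12 spectral clusters; scikit-learn 1.9.0) and named from markers. Log2(RPKM + 1), with a pseudocount of 1, was averaged per mouse and class. Genes with a mean of at least 1 were tested with limma 3.58.1 (R 4.3.3, no trend) with Benjamini-Hochberg adjustment at 0.05, with the mouse as a block for classes and zones, and single genes with exact permutation tests over mice (Python 3.11.15, numpy 2.4.6, scipy 1.17.1). The scripts were tested on simulated data. Fold differences are on the log2(RPKM + 1) scale, which understates changes of low genes. Alternatives covered the pseudocount, averaging, filter, scaling, clustering (with leidenalg 0.10.2 in 1 of them), reference classes, zone score, spread and each mouse left out.

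All 10 genes were named in the comparisons of classes, diets and zones. Other genes came from the lists, by smallest adjusted p up to 4 a list and by highest level up to 2 that did not pass, or by the 3 highest correlations with a gene of the set; Mmp9 and Timp2 fell under the first rule. The genes, lists and tests were chosen with earlier results of these data known. List members without a row in the table, such as Lama2, Timp1 and Lox, were not analysed here. One of the most alike genes is not reported here.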

Additional observations from a re-analysis of the deposited data

Results flagged for a closer look

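Of 20 values tested for a mouse far from the other 5, 2 were found, where chance gives about 1. The zone difference of Col4a1 (pericentral-leaning minus periportal-leaning cells) was 1.54 in HFD 2 and between -0.35 and 0.08 in the other mice. HFD 2 was also the mouse whose cells were mostly in 1 cluster with few cells of most other mice. The zone difference of Cd34 was -0.81 in ND 2 and between -0.27 and 0.01 in the others, and rests on the 6 cells of that mouse with Cd34. Neither value belonged to a gene called by zone.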

How the results depend on the processing

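The 8 genes tested kept their direction and their call between classes in each alternative in which they passed the filter, with 3999 genes called in all without a filter and 1113 with a filter at a mean of 2 (2317 in the main analysis). By diet, 0 of the genes were called in the 20 alternatives, of which Lama4 passed the filter in 19. Averaging RPKM before the logarithm turned Col4a2 to 0.23 and Sparc to 0.10, and Leiden clustering turned Sparc to 0.0216. With a mean-variance trend 1 gene of all was called. Over the mice left out 1 at a time, 0 to 50 genes were called by diet, and the differences ran from -0.21 to 0.50 for Col4a1, -0.24 to 0.11 for Sparc, -0.11 to 0.68 for Nid1 and -0.11 to 0.72 for Hspg2.

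By zone, 2 of the 8 genes and 47 of all were called. The 8 gave 1 call with a pseudocount of 10, with a filter at 2, where Lama4 was not tested, and with the outer 2 of 3 parts of the score, and 0 with RPKM averaged first, no filter, a trend or each gene's own spread. All genes gave 25 calls with a pseudocount of 0.1, 28 with a pseudocount of 10, 0 with RPKM averaged first or a trend, and 1 with no filter or own spread. Leaving out mice gave 1 to 2 calls among the 8 and 9 to 56 among all. Col4a1 turned to -0.19 with RPKM averaged first and to -0.0171 with 10 principal components. Nid1 turned to 0.0826 in cells with at least 1500 genes, to 0.0872 with 10 principal components and to 0.0698 with no clustering, where Sparc was at 0.00077. Leaving out mice gave -0.17 to 0.21 for Col4a1 and -0.38 to 0.19 for Nid1. The cause was not tested. Of the genes most alike, 14 of 24 places were kept without the regression. Leaving out cells with markers of mesenchymal, bile duct or platelet cells was chosen after seeing the data and changed no call of the 8.

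Replicate numbers are shared by the diets but did not pair the mice: deviations of same-numbered mice correlated at -0.17, 0.10 and -0.18 over 4217 genes. With the number as a replicate block, 0 of the 8 genes and 0 of all genes were called by diet. The design of 3 mice a diet limits the diet comparison. Reads per cell limit Lama4 and Vwf, and Cd34 is limited by the small number of cells in which it was detected.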
